A study of Brassica napus with 22 samples.

Results

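The peripheral endosperm and the inner seed coat face each other across the boundary between the filial and the maternal part of a seed, and their transcriptomes were set side by side here in Brassica napus (oilseed rape), cultivar Topas. The members are 5 of 22 samples, chosen by their labels: 2 libraries of peripheral endosperm (gPEN) and 3 libraries of inner seed coat (gISC). Plants grew under long days, and seeds were taken at the globular stage, when the embryo is a ball of cells. The tissue was probably cut out by laser microdissection, for which the letters lmd in the table's name are the only source, and total RNA was isolated with an Ambion reagent and made into libraries with a NuGen Ultralow kit. Both tissues come from the same untreated cultivar, and no genotype or treatment separates them. The authors deposited 1 combined column per tissue, in FPKM (fragments mapped to a gene, scaled by its length and by the size of the library) rounded to whole numbers. No spread between libraries could therefore be computed, read depth is unknown, and no difference below carries a test, an error or an interval. Because each column is a tissue in bulk, fewer cells of a type and less RNA per cell cannot be told apart.

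The peripheral endosperm is the triploid nourishing tissue that lines the central cavity of the seed. At this stage it is usually a multinucleate layer of cytoplasm whose nuclei divide without walls, and in oilseed rape it later forms cells and is consumed by the embryo. The inner seed coat is maternal, derives from the integuments of the ovule, and in Brassicaceae includes the layer that stores proanthocyanidins and layers that are crushed as the seed grows. No symplastic bridge links mother and offspring, so sugars, amino acids and hormones leave the inner seed coat and enter the endosperm through transporters and walls.

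Of 101040 genes in the table, 55148 had at least 1 FPKM in either column and were compared. A gene was counted as higher on one side when log2(FPKM + 1) differed by at least 1 and the higher column held at least 5 FPKM. By this rule of size, 7430 genes (13.5%) were higher in gPEN and 9344 (16.9%) were higher in gISC, while 38374 (69.6%) were neither. These percentages are the background against which each group of genes below is read. The FPKM of all genes summed to 1376626 in gPEN and 945717 in gISC. With both columns scaled to an equal sum, leaving rRNA and organelle genes out of it (the common sum below), 5083 genes were higher in gPEN and 11472 in gISC, so that gPEN held 30.7% of the counted genes instead of 44.3%, and the median of all compared genes moved by -0.47 on the log2 scale. Counts given below with the common sum are to be read beside these 5083 and 11472 genes, also where an order is said to turn. Differences of at least 8-fold, on the scale of FPKM + 1, were counted for 2714 genes in gPEN and 3407 in gISC. Genes at 100 FPKM or more on one side and listed at 0 on the other numbered 50 for gPEN and 78 for gISC. Just inside the rule, with differences from 1 to 1.2, stood 1145 genes in gPEN and 1162 in gISC, and 851 and 871 stood just outside it.

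Markers of both tissues were on their own side. Of 39 compared copies of peripheral endosperm markers, 25 were higher in gPEN and 0 in gISC, and the list summed to 1984 FPKM in gPEN against 34 FPKM in gISC. Of 21 copies of inner seed coat markers, 0 were higher in gPEN and 15 in gISC, with sums of 134 FPKM in gPEN and 38588 FPKM in gISC. Most of the gISC sum was DVPE, at 37280 FPKM, beside 1112 FPKM for TT16, 153 FPKM for TT2 and 36 FPKM for TT12. BAN, the last enzyme before proanthocyanidins, had 1 FPKM in both columns, and DFR had 4 FPKM in both. AHA10 and TT1 did not exceed 1 FPKM on either side. Embryo markers were almost absent, with sums of 8 FPKM in gPEN and 16 FPKM in gISC and 44 of 57 copies at 0 in both. Vascular markers summed to 37 FPKM in gPEN and 92 FPKM in gISC, against 612 FPKM in the outer seed coat (gOSC). Chalazal endosperm markers summed to 507 FPKM in gPEN and 6 FPKM in gISC, against 2524 FPKM in the chalazal endosperm column. Markers of the outer seed coat epidermis summed to 204 FPKM in gPEN and 1230 FPKM in gISC. In gOSC that list summed to 552 FPKM, less than in gISC, so it does not separate both coat layers here.

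Traces of the most abundant transcripts were seen across the boundary in both directions. For 123 genes at 1000 FPKM or more and higher in gPEN, the gISC column held a median of 0.910% of the gPEN level, or 22 FPKM. For 39 such genes of gISC, the gPEN column held a median of 0.322% of the gISC level, or 10 FPKM. The part of carried-over RNA in the low values below was not tested.

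**Figure D1:**
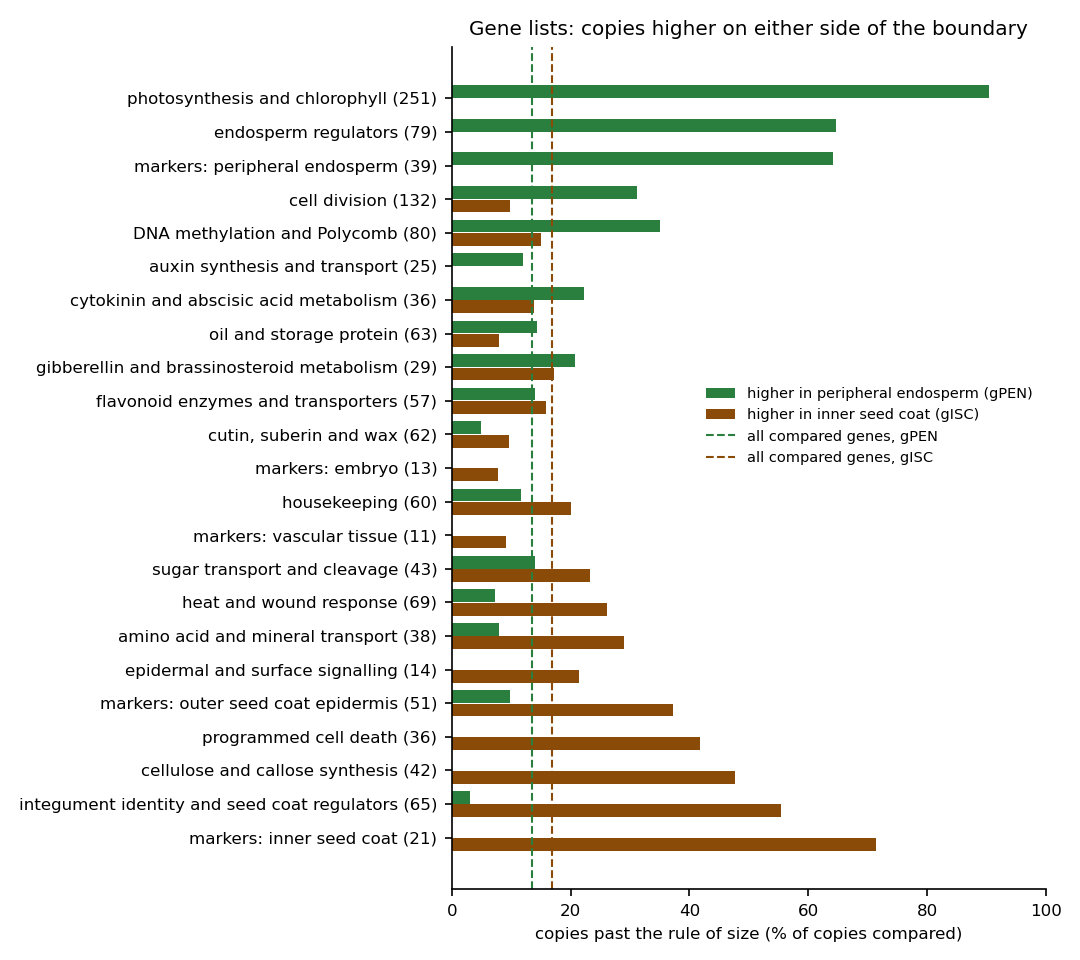
Share of compared copies (x axis, percent) past the rule of size for each gene list with 10 or more compared copies (y axis, number of compared copies in brackets), in green for copies higher in peripheral endosperm (gPEN) and in brown for copies higher in inner seed coat (gISC). Dashed lines mark the background of all compared genes, 13.5% for gPEN and 16.9% for gISC. Photosynthesis and endosperm regulators reach 90.4% and 64.6% in gPEN, and integument regulators reach 55.4% in gISC.

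Regulators of endosperm development were found on the filial side of the boundary. Of 79 compared copies in this list, 51 (64.6%) were higher in gPEN and 0 in gISC, and 28 were neither. The same 51 and 0 were counted with the common sum and after quantile normalisation. Type I MADS-box factors, which in Arabidopsis act in the female gametophyte and endosperm, made up much of the list. AGL62, which holds back endosperm cellularisation in Arabidopsis, was higher in gPEN in 10 of 11 copies, with 2 to 227 FPKM in gPEN and 0 to 4 FPKM in gISC. Its copy BnaA10g13240D (chromosome A10, 10723325 to 10724508) had 227 FPKM in gPEN and 2 FPKM in gISC, a log2 difference of 6.25. AGL91 had 299 and 459 FPKM in its 2 copies in gPEN, against 3 and 7 FPKM in gISC. The AGL87 copy BnaA07g10380D (A07, 9837265 to 9837798) had 134 FPKM in gPEN and was listed at 0 in gISC. AGL40, in its single copy BnaA04g16540D, had 93 FPKM in gPEN and 0 in gISC. PHE2 stood at 68 and 124 FPKM in gPEN and at 1 FPKM in gISC in both copies, and its imprinted relative PHE1 was higher in gPEN in 3 of 4 copies.

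Compared members of the HAIKU pathway, which sets endosperm growth and seed size in Arabidopsis, lay on the same side. MINI3, its WRKY factor, was higher in gPEN in 9 of 13 copies, with up to 231 FPKM in gPEN and at most 3 FPKM in gISC. IKU1, its VQ-motif partner, was higher in 3 of 4 copies but reached 8 FPKM only. IKU2, a further member of the pathway, had no copy among those compared. CKX2, a cytokinin oxidase that acts downstream of this pathway in Arabidopsis, had 104 FPKM in gPEN and 1 FPKM in gISC in BnaA09g52930D. Both compared copies of TFL1, a relative of the florigen proteins, had 29 and 43 FPKM in gPEN and were listed at 0 in gISC. In the chalazal endosperm column (gCZE), these TFL1 copies had 3 FPKM or less. Genes of the later breakdown of the endosperm were near 0: ZOU, a bHLH factor of that process, had 1 FPKM in gPEN and 0 in gISC, and its target ALE1 had 1 or 2 FPKM in gPEN and 0 in gISC. EDE1, a microtubule protein of dividing endosperm, had 1 to 3 FPKM in gPEN and at most 1 FPKM in gISC.

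Within the endosperm, these regulators were shared between regions. Over the 79 copies, FPKM summed to 3983 in gPEN and 85 in gISC, beside 4980 in gCZE and 992 in the micropylar endosperm. Whole seeds, which hold all tissues, summed to 34. Of the 51 copies counted for gPEN, 36 had their highest value of the 7 compartments there, 34 were at least 2-fold above gCZE and 7 at least 2-fold below it. AGL35, a MADS-box gene of the chalazal endosperm list, had up to 311 FPKM in gPEN and at most 4 FPKM in gISC, and reached 1107 FPKM in gCZE.

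Photosynthesis and chlorophyll genes had the highest share of copies on the endosperm side among the gene lists. Of 251 compared copies, 227 (90.4%) were higher in gPEN and 0 in gISC. With the common sum the counts were 222 in gPEN and 1 in gISC. FPKM summed to 43462 in gPEN and 1982 in gISC, and the gISC sum was the lowest of the 7 compartments. Of the counted copies, 194 differed by at least 8-fold on the same scale and 130 reached 100 FPKM in gPEN. No compared copy exceeded 193 FPKM in gISC.

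Every stage of the pathway had the same direction. Photosystem I subunits were higher in gPEN in 39 of 41 copies, with sums of 6324 FPKM in gPEN and 250 FPKM in gISC. For photosystem II the count was 44 of 48 copies and the sums were 8363 FPKM in gPEN and 465 FPKM in gISC. Light-harvesting antenna proteins followed with 48 of 56 copies and sums of 8986 FPKM in gPEN and 331 FPKM in gISC. Carriers of electrons and ATP synthase subunits were higher in gPEN in 28 of 32 copies, and enzymes of chlorophyll synthesis in 28 of 31.

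Carbon fixation held the highest single values. Its 39 copies, of which 36 were higher in gPEN, summed to 15513 FPKM in gPEN and 548 FPKM in gISC. Rubisco small subunits led: RBCS3B had 219 to 2348 FPKM in gPEN and 5 to 34 FPKM in gISC over 5 copies. RBCS1A had 1608 and 1958 FPKM in gPEN, against 19 and 26 FPKM in gISC. The largest difference in the list was that of the RBCS1B copy BnaA02g12840D (A02, 6935323 to 6936505), with 1796 FPKM in gPEN and 15 FPKM in gISC, a log2 difference of 6.81. PSBR, a small subunit of photosystem II, had 220 FPKM in gPEN and 1 FPKM in gISC in BnaC06g39450D. Both regulators of chloroplast development in the list had low values: GLK1 had 9 and 10 FPKM and GLK2 5 and 15 FPKM in gPEN, and all 4 copies were listed at 0 in gISC.

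Other compartments lay between these columns. The list summed to 26214 FPKM in the micropylar endosperm, 11906 in the chalazal proliferating tissue (gCPT), 11629 in gCZE, 7269 in gOSC and 3940 in the embryo proper. Of the 227 counted copies, 171 were highest in gPEN and 192 were at least 2-fold above gCZE.

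**Figure D2:**
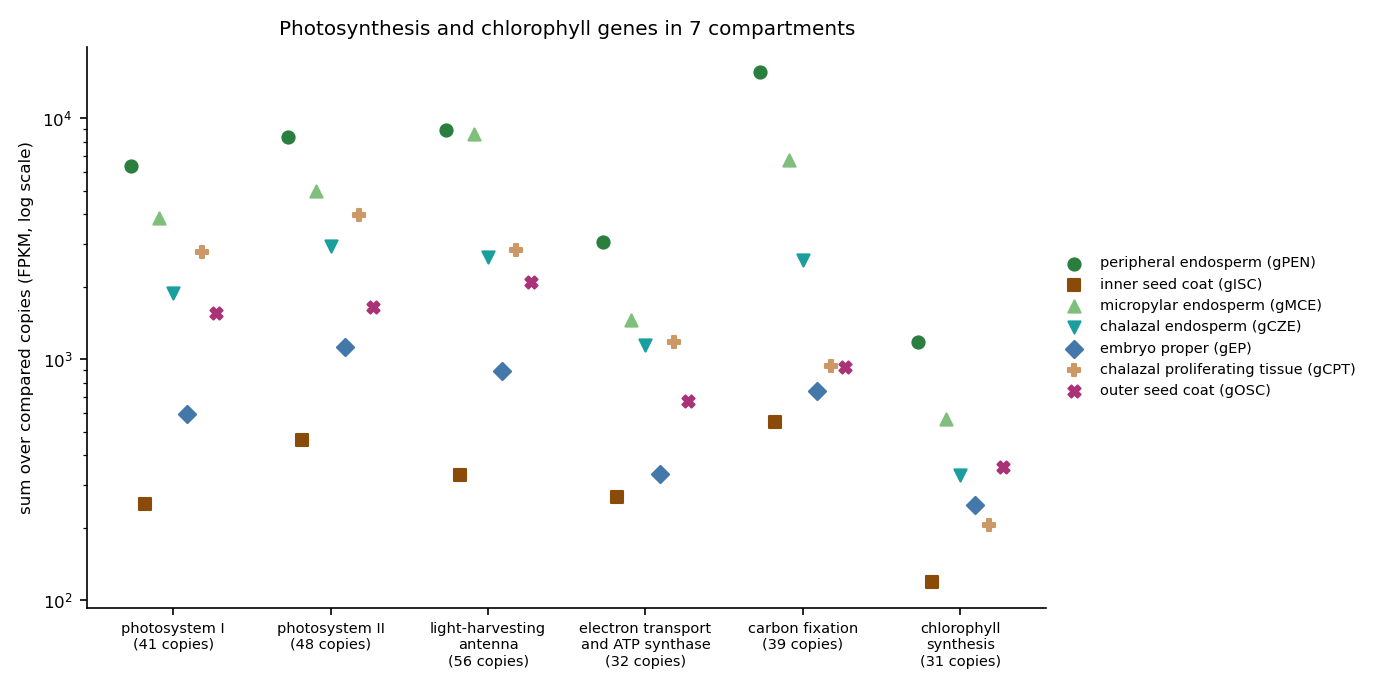
FPKM summed over compared copies (y axis, log scale) for 6 groups of photosynthesis and chlorophyll genes (x axis, number of copies in brackets) in the 7 dissected compartments, 1 point per column. Peripheral endosperm (green circles) is the highest column and inner seed coat (brown squares) the lowest in each group, for example 15513 and 548 FPKM for carbon fixation. No error can be drawn, since each point is 1 combined column.

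Small secreted cysteine-rich peptides were also on the endosperm side. These peptides carry signals between cells or act in defence, and many are known from reproductive tissues. Among 112 compared genes described as low-molecular-weight cysteine-rich, 86 were higher in gPEN and 1 in gISC, and the family took 9.08% of all FPKM in gPEN and 0.159% in gISC. Defensin-like genes were higher in gPEN in 51 of 71 and in gISC in 1, and took 3.46% of FPKM in gPEN and 0.0541% in gISC. Genes of the S1 self-incompatibility family were higher in gPEN in 44 of 82 and in gISC in 0. The LCR61 homolog BnaC07g27920D (C07, 33298422 to 33299170) had 3427 FPKM in gPEN and 5 FPKM in gISC, a log2 difference of 9.16. A defensin-like gene, BnaCnng53490D, had 635 FPKM in gPEN, 2 FPKM in gISC and 19421 FPKM in gCZE. BnaC03g71200D, of the S1 family, had 304 FPKM in gPEN, 0 in gISC and 3 FPKM in gCZE. The exception among low-molecular-weight genes was an LCR37 homolog, BnaC07g41880D, with 0 in gPEN, 313 FPKM in gISC and 319 FPKM in gCZE. Its deposited length is 93 bases. These families are shared within the endosperm, since low-molecular-weight cysteine-rich genes took 8.90% of FPKM in gCZE and 2.92% in the micropylar endosperm, but at most 0.0826% in any of the embryo proper, gCPT and gOSC.

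Lipid transfer proteins, small carriers of lipids in the cell wall, had nearly equal counts, with 29 of 153 genes higher in gPEN and 27 in gISC. With the common sum the counts were 27 and 30, where the order turned, beside 5083 and 11472 of all compared genes. The sums of lipid transfer proteins were unequal, at 4.80% of FPKM in gPEN and 0.689% in gISC. One gene, BnaA08g29110D, accounted for 17311 FPKM in gPEN and 130 FPKM in gISC.

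Ribosomal protein genes were higher on the filial side in many copies of moderate difference. Cytosolic and organelle ribosomes were not told apart, since the family was set by words in the descriptions. Of 1169 ribosomal protein genes, 450 (38.5%) were higher in gPEN and 49 (4.19%) in gISC, with a median log2 difference of 0.81 beside -0.08 over all compared genes. The counts were 234 and 77 with the common sum and 336 and 42 after quantile normalisation. Ribosomal proteins took 8.16% of FPKM in gPEN and 6.15% in gISC.

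Cell division genes leaned to the same side. Of 132 copies, 41 (31.1%) were higher in gPEN and 13 (9.85%) in gISC, or 32 and 14 with the common sum. On the gPEN side stood mitotic kinases and cyclins. The CDKB2;2 copies BnaC07g15060D and BnaA07g11180D, plant-specific mitotic kinases, had 100 and 65 FPKM in gPEN, against 2 and 1 FPKM in gISC. CDC20.1, an activator of the anaphase-promoting complex, had 68 FPKM in gPEN and 2 FPKM in gISC in BnaA01g03590D. AUR1, an Aurora kinase, was higher in gPEN in 4 of 5 copies, and PCNA1, the replication clamp, in 3 of 4. Of the 13 copies on the gISC side, 8 were of KRP1, KRP2 and CCS52A1, which restrain the cycle or lead out of it in Arabidopsis. KRP1, a cyclin-dependent kinase inhibitor, had 0 in gPEN and 14 and 36 FPKM in gISC. KRP2, of the same family, was higher in gISC in 2 of 3 copies. CCS52A1, which promotes endoreduplication, was higher in gISC in 4 of 7 copies, with 1 FPKM in gPEN in each copy and up to 20 FPKM in gISC. CCS52A2, its relative, had 0 of 4 copies past the rule. The other gISC copies were of KEULE and the cyclins CYCD2;1 and CYCB2;3. CYCD2;1 was split, with 1 of 4 copies higher in gPEN and 2 in gISC, and so was CYCB2;3, with 1 of 5 each way.

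Genes of DNA methylation and Polycomb silencing, which control imprinting in the endosperm, gave 28 of 80 copies (35.0%) higher in gPEN and 12 (15%) in gISC. The methylation genes were uneven. MET1, the CG methyltransferase, was higher in gPEN in 2 of 4 copies, while DDM1, CMT2, KYP and VIM3 had no copy past the rule. VIM1, a cofactor of MET1, was higher in gPEN in 5 of 6 copies and had 79 FPKM in gPEN and 1 FPKM in gISC in BnaA09g41060D. CMT3, a chromomethylase, had 42 and 36 FPKM in gPEN and 0 in gISC in both copies. FIS2, a subunit of the seed-specific Polycomb complex, had 11 and 12 FPKM in gPEN and 0 in gISC, and its partner MEA was higher in gPEN in 1 of 3 copies, with 20 FPKM in gPEN and 0 in gISC. Copies of the common subunits were split: MSI1 had 4 of 6 copies higher in gPEN and 2 in gISC, FIE had 2 of 6 each way, and VRN2 had 3 of 7 each way. ROS1, which removes DNA methylation, had 0 in gPEN and 8 and 12 FPKM in gISC. Histone genes were higher in gPEN in 57 of 237 (24.1%) and in gISC in 24 (10.1%). With the common sum the counts were 33 and 37, where the order turned, beside 5083 and 11472 of all compared genes.

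**Figure D3:**
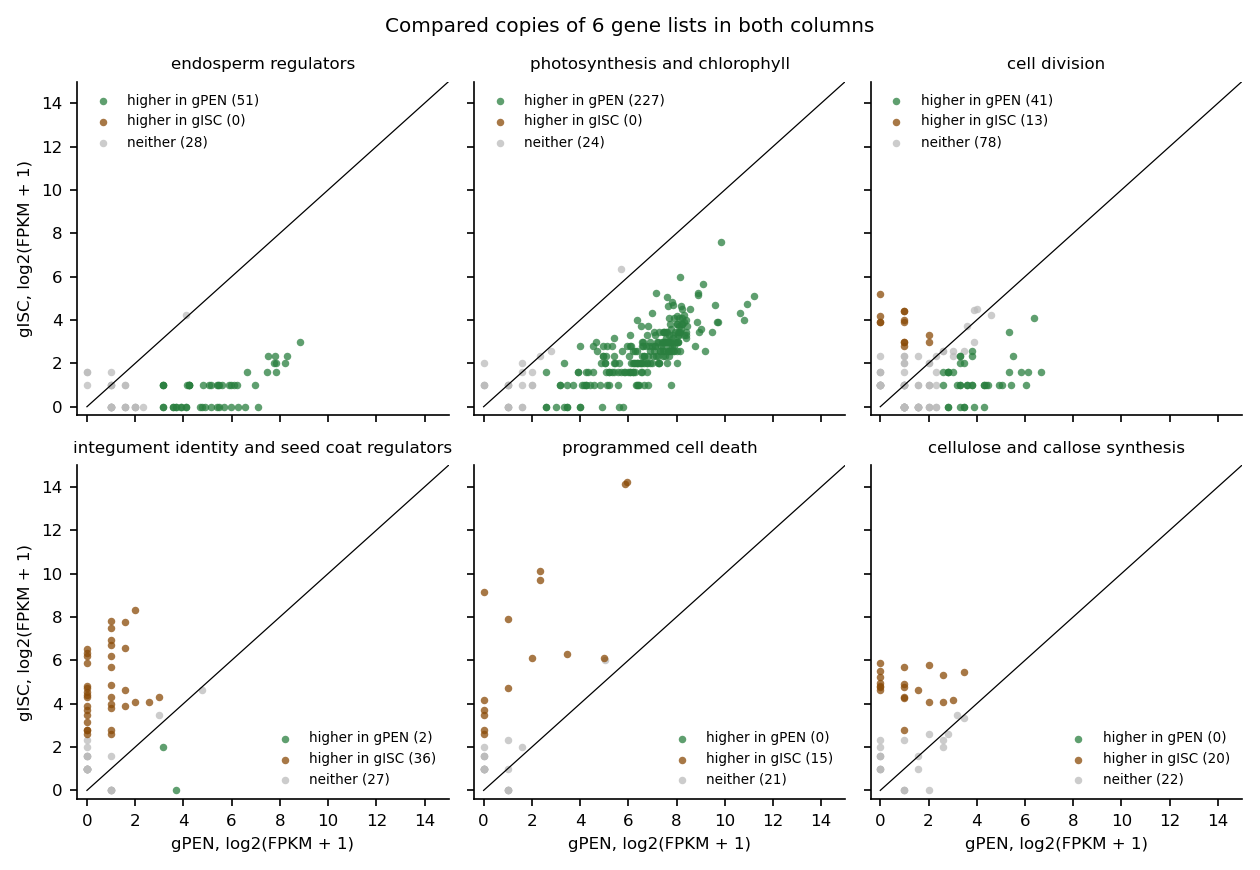
Compared copies of 6 gene lists, 1 point per copy, with log2(FPKM + 1) in peripheral endosperm (gPEN, x axis) against inner seed coat (gISC, y axis). Green and brown points passed the rule of size for gPEN and gISC, grey points did not, numbers stand in the legends, and the line marks equal values. Of 251 photosynthesis copies 227 passed the rule for gPEN and lie below the line, while copies of the cell death and cellulose lists past the rule all lie above it.

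Regulators of ovule and integument identity, mostly MADS-box factors, were found on the maternal side. Of 65 compared copies of integument and seed coat regulators, 2 (3.08%) were higher in gPEN and 36 (55.4%) in gISC. FPKM summed to 98 in gPEN and 2097 in gISC, beside 2652 in gOSC and 2095 in gCPT, so these regulators were shared with the other maternal tissues. TT16, a MADS-box factor of the innermost integument layer in Arabidopsis, was higher in gISC in all 6 copies, with 1 to 3 FPKM in gPEN and 51 to 322 FPKM in gISC. TT2, the MYB factor that activates proanthocyanidin synthesis, had 0 in gPEN and 72 and 81 FPKM in gISC, while MYB5, another MYB factor of the seed coat, had 0 of 4 copies past the rule. SEP3, a partner of floral and ovule MADS-box factors, was higher in gISC in 6 of 8 copies, with 0 in gPEN and 90 FPKM in gISC in BnaA09g28040D. One short SEP3 copy, BnaC07g11280D, ran the other way, with 12 FPKM in gPEN and 0 in gISC. STK, the ovule identity factor, was higher in gISC in 2 of 4 copies, and its relative SHP2 in 3 of 4.

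Growth regulators of the integuments were on the same side at lower levels. AP2, which limits seed size from maternal tissue in Arabidopsis, was higher in gISC in all 5 copies, with at most 2 FPKM in gPEN and 5 to 28 FPKM in gISC. ARF2, a repressor of integument cell division, was higher in gISC in 6 of 8 copies and in gPEN in 1. BEL1, a homeodomain factor of integument identity, had 2 FPKM in gPEN and 24 FPKM in gISC in its 1 compared copy. From the list of outer coat epidermis markers, MYB61, a regulator of mucilage and wall deposition, was higher in gISC in all 6 copies, with 1 FPKM in gPEN and 55 to 182 FPKM in gISC. In gOSC these copies had 4 to 27 FPKM. MUM2, a galactosidase that ripens mucilage, was the reverse: BnaA02g33920D had 38 FPKM in gPEN and 0 in both gISC and gOSC.

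MADS-box genes as a whole showed both sides of the boundary. Of 171 genes, 46 were higher in gPEN and 48 in gISC, or 46 and 44 after quantile normalisation, where the order turned. AGL87 and AGL40, both type I, had the largest differences on the gPEN side, and TT16 and SEP3 on the gISC side. In the bHLH, NAC, MYB and AP2/ERF families most genes were neither, and the gISC shares were 20.5% to 23.3%, beside 16.9% of all compared genes. For bHLH the counts were 6 of 188 genes in gPEN and 42 in gISC, for NAC 3 and 23 of 111, for MYB 12 and 38 of 163, and for AP2/ERF 7 and 23 of 112. WRKY genes gave 12 of 94 (12.8%) in gPEN and 15 (16%) in gISC, near the background, or 12 each after quantile normalisation.

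Proteases of programmed cell death reached high levels on the maternal side. Of 36 compared copies in the list, 0 were higher in gPEN and 15 (41.7%) in gISC, and FPKM summed to 213 in gPEN and 40169 in gISC. DVPE, a vacuolar processing enzyme that acts in the death of inner integument layers in Arabidopsis, held most of that sum. The same DVPE copies also make up most of the gISC sum of the inner seed coat markers above. Its copy BnaA05g18870D (A05, 14274447 to 14276941) had 60 FPKM in gPEN and 19004 FPKM in gISC, a log2 difference of -8.28. The homeologous copy BnaC05g31880D (C05, 31227438 to 31229889) had 58 FPKM in gPEN and 18024 FPKM in gISC. Both were also present in gCPT, at 1795 and 563 FPKM, and in gOSC, at 247 and 239 FPKM. Reads of near-identical copies may have been divided between them in the counting, so their single values are uncertain.

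Papain-type proteases accompanied it. SAG12, a cysteine protease of senescing cells, had 0 and 4 FPKM in gPEN and 571 and 1116 FPKM in gISC. CEP1, an endopeptidase of dying tapetum in Arabidopsis, had 4 FPKM in gPEN and 837 FPKM in gISC in BnaA03g23380D, and 465 FPKM in gCPT. GVPE, a second processing enzyme, had 10 and 31 FPKM in gPEN and 78 and 67 FPKM in gISC. RNS3, a ribonuclease, was higher in gISC in 1 of 2 copies, at up to 25 FPKM. CEP3 was higher in gISC in 2 of 3 copies, at up to 17 FPKM, and SCPL48 in 1 of 2, at up to 12 FPKM. XCP2 reached 32 FPKM in gPEN and 63 FPKM in gISC, with 0 of 5 copies past the rule. BFN1, KIR1, PASPA3 and MC9, also on the list, did not exceed 1 FPKM on either side. Of the 15 copies, 9 were highest in gISC among the 7 compartments.

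Cellulose synthesis was on the maternal side as well. Of 42 copies of cellulose and callose synthesis genes, 0 were higher in gPEN and 20 (47.6%) in gISC. CESA1 and CESA3, core subunits of primary wall cellulose synthase, were higher in gISC in all 4 copies each, with at most 1 FPKM in gPEN and 19 to 58 FPKM in gISC. CESA2 was higher in gISC in both copies, at 18 and 36 FPKM. KOR1, an endoglucanase needed for cellulose synthesis, was higher in gISC in 5 of 6 copies. GSL8, a callose synthase of the cell plate in Arabidopsis, had 8 and 10 FPKM in gPEN and 9 and 10 FPKM in gISC, and neither copy passed the rule. KNOLLE, the syntaxin of the cell plate, was higher in gPEN in 2 of 3 copies, at up to 13 FPKM, while KEULE, its binding partner, was higher in gISC in 2 of 4.

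Enzymes and other proteins that remodel or line walls had the same direction in several families. Arabinogalactan proteins gave 11 of 90 genes higher in gPEN and 38 in gISC. Xyloglucan endotransglucosylases gave 3 of 38 and 12. Glucanases and chitinases gave 6 of 77 higher in gPEN and 27 in gISC, led by the chitinase-family gene BnaA08g31740D with 2 FPKM in gPEN and 472 FPKM in gISC. Class III peroxidases, which cross-link walls, took 0.0115% of FPKM in gPEN and 0.755% in gISC, with 5 of 66 genes higher in gPEN and 19 in gISC. The peroxidase BnaA01g11800D had 3 FPKM in gPEN and 1410 FPKM in gISC. GDSL lipases gave 1 of 68 genes higher in gPEN and 20 in gISC, and BnaA06g01430D of this family had 2 FPKM in gPEN and 1131 FPKM in gISC.

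Pectin genes were split. Pectin methylesterases and their inhibitors gave 28 of 118 genes higher in gPEN and 23 in gISC. The inhibitor BnaC03g07010D had 3585 FPKM in gPEN and 13 FPKM in gISC, while another, BnaCnng23240D, had 10 FPKM in gPEN and 2607 FPKM in gISC. Pectate lyases and polygalacturonases gave 24 of 137 each way, with a tilt to gISC (23 and 26) with the common sum and to gPEN (24 and 18) after quantile normalisation. Subtilases, serine proteases of the wall and apoplast, were also divided, with 22 of 65 higher in gPEN and 12 in gISC.

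Water channels past the rule were nearly all on the gISC side. Of 62 compared aquaporin genes, 1 (1.61%) was higher in gPEN and 27 (43.5%) in gISC, and 34 were neither. PIP1B, a plasma membrane aquaporin, had 2 FPKM in gPEN in both BnaC04g50590D and BnaA04g26560D, against 596 and 474 FPKM in gISC. The single gene of the other direction, BnaC04g08090D, a PIP2 type, had 27 FPKM in gPEN and 7 FPKM in gISC.

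**Figure D4:**
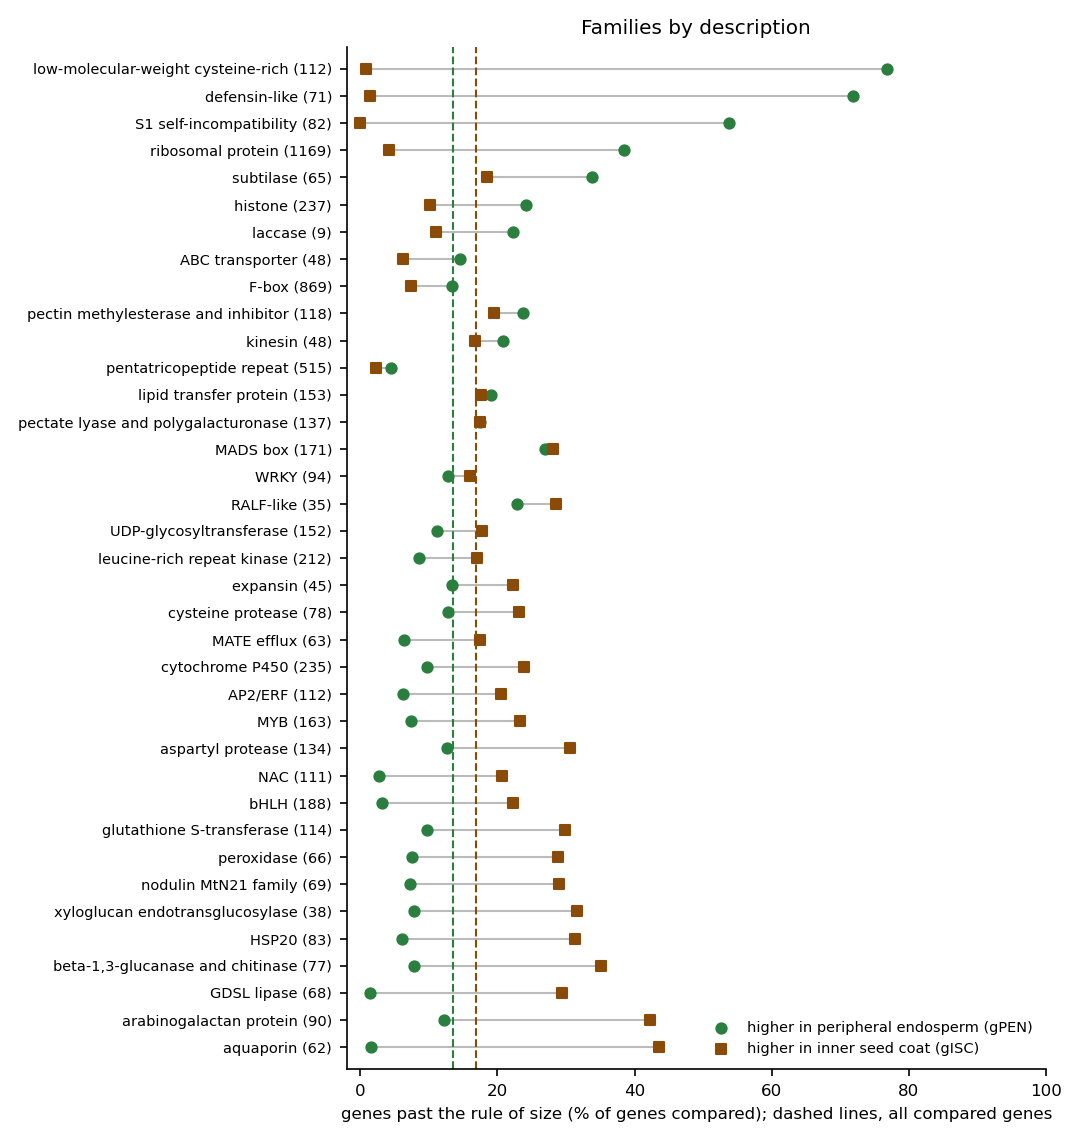
Share of compared genes (x axis, percent) past the rule of size for 37 families defined by words in the gene descriptions (y axis, number of compared genes in brackets), with green circles for genes higher in peripheral endosperm (gPEN) and brown squares for genes higher in inner seed coat (gISC). Dashed lines mark the background of 13.5% for gPEN and 16.9% for gISC. Low-molecular-weight cysteine-rich genes lie farthest on the gPEN side, at 76.8% and 0.893%, and aquaporins farthest on the gISC side, at 1.61% and 43.5%.

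Flavonoid genes, which make the brown pigments of the coat, did not lean as a list: 8 of 57 copies (14.0%) were higher in gPEN and 9 (15.8%) in gISC, close to the background on both sides. The members differed. Of the entry enzymes, C4H was higher in gPEN in 4 of 5 copies, at up to 97 FPKM in gPEN and 6 FPKM in gISC, PAL1 in 2 of 4 and PAL2 in 2 of 6, with none of these copies higher in gISC. The PAL1 copy BnaA05g07370D had 11 FPKM in gPEN, 0 in gISC and 165 FPKM in gCZE. Chalcone synthase CHS, the first committed enzyme, had 0 of 8 copies past the rule. Of the late enzymes, DFR, LDOX and BAN had no copy past the rule, and neither had the transport genes AHA10 and TT15. Other members were higher in gISC. TT12, the vacuolar transporter of proanthocyanidin precursors, had 0 in gPEN and 11 and 25 FPKM in gISC. TT19, a glutathione transferase of the same route, had 1 FPKM in gPEN and 66 FPKM in gISC in BnaA10g17440D. CHIL, which assists chalcone synthesis, had 1 FPKM in gPEN and 14 and 45 FPKM in gISC. The hydroxylase F3PH had 0 in gPEN and 30 FPKM in gISC, and 117 FPKM in gOSC.

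Sugar transporters and sucrose-cleaving enzymes differed by member between the sides. Of 43 copies in the list, 6 (14.0%) were higher in gPEN and 10 (23.3%) in gISC. SUC1, a sucrose-proton symporter, had 31 FPKM in gPEN and 1 FPKM in gISC in BnaC03g02450D, and 12 FPKM in gPEN and 1 FPKM in gISC in BnaA03g01930D. VI2, a vacuolar invertase, was higher in gPEN in 3 of 4 copies, at up to 20 FPKM in gPEN. SUC2, the phloem loader, had 0 in gPEN and 16 FPKM in gISC in BnaA09g30430D. SUS1, a sucrose synthase, was higher in gISC in 3 of 4 copies, and CINV2, a cytosolic invertase, in both of its copies. SWEET exporters on the list did not exceed 4 FPKM in either column. A gene outside the list described as nodulin MtN3 family, the family to which SWEET exporters belong, was among the 10 largest differences of gISC: BnaC05g16660D (C05, 10472176 to 10473671) was listed at 0 in gPEN and had 616 FPKM in gISC, with at most 22 FPKM in the other compartments.

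Amino acid and mineral transporters gave 3 of 38 copies (7.89%) higher in gPEN and 11 (28.9%) in gISC. UMAMIT18, an amino acid exporter in Arabidopsis, had 0 in gPEN and 110 and 32 FPKM in gISC in BnaA10g08600D and BnaC06g00800D. UMAMIT11, of the same family, had 0 in gPEN and 76 FPKM in gISC in BnaA04g23610D. The importer AAP1 had 0 in gPEN and 12 and 40 FPKM in gISC. AAP8, an importer that feeds the endosperm in Arabidopsis, was divided by copy. BnaA06g38000D and BnaC05g49200D had 61 and 34 FPKM in gPEN and 1 FPKM each in gISC, whereas 1 further copy was higher in gISC, at 78 FPKM. YSL1, a transporter of metal chelates, had 17 FPKM in gPEN and 0 in gISC in BnaA08g15130D.

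Hormone genes differed between the sides in single enzymes, often in part of their copies and at low levels. Auxin was carried by a single gene family: TAR1, a relative of the first enzyme of auxin synthesis, was higher in gPEN in all 3 copies, with 31 to 120 FPKM in gPEN and at most 1 FPKM in gISC, and none of the other 22 compared copies of the list passed the rule. The median of the list was -1.0 on the log2 scale all the same, while none of those 22 copies exceeded 4 FPKM in either column. YUC10, the next enzyme and an endosperm gene in Arabidopsis, had 2 to 4 FPKM in gPEN and 0 in gISC. Cytokinin and abscisic acid genes gave 8 of 36 copies (22.2%) higher in gPEN and 5 (13.9%) in gISC, beside 13.5% and 16.9% of all compared genes. With the common sum the counts were 5 and 6, where the order turned. Within this list, CKX2 was higher in gPEN in 2 of 4 copies. CKX5, another cytokinin oxidase, had 0 in gPEN and 15 FPKM in gISC in BnaAnng09190D. NCED3, a synthesis enzyme of abscisic acid, had 0 in gPEN and 13 FPKM in gISC in BnaC01g36910D. CYP707A1, which degrades abscisic acid, had 0 in gPEN and 20 FPKM in gISC in both copies. ABA2, which acts after NCED3 in synthesis, ran the other way in 2 of 3 copies, at up to 52 FPKM in gPEN and 22 FPKM in gISC.

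Gibberellin and brassinosteroid genes gave 6 of 29 copies (20.7%) higher in gPEN and 5 (17.2%) in gISC. With the common sum the counts were 2 and 5, where the order turned. KAO1, an oxidase of gibberellin synthesis, had 22 FPKM in gPEN and 1 FPKM in gISC in BnaA10g03180D, and the last enzyme of that route, GA3OX4, had 5 FPKM in gPEN and 0 in gISC in BnaA02g19820D. DWF4, a hydroxylase of brassinosteroid synthesis, had 0 in gPEN and 5 and 6 FPKM in gISC in 2 of 3 copies.

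Cuticle genes, which make lipid barriers between tissues, were low in both columns. Of 62 compared copies of cutin, suberin and wax genes, 3 (4.84%) were higher in gPEN and 6 (9.68%) in gISC, or 3 and 3 after quantile normalisation. Their FPKM summed to 78 in gPEN and 132 in gISC, against 2119 in gOSC. LTPG1, a lipid transfer protein of wax export, had 21 and 23 FPKM in gPEN and 1 and 4 FPKM in gISC. DCR, an acyltransferase of cutin synthesis, had 1 FPKM in gPEN, 28 FPKM in gISC and 582 FPKM in gOSC in BnaC02g41520D. Signalling genes of the embryo and seed surface gave 0 of 14 copies higher in gPEN and 3 in gISC. One was GSO2, a receptor kinase that guards the embryonic cuticle, which had 0 in gPEN and 8 FPKM in gISC in BnaAnng05190D.

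Oil and storage protein genes were at low levels, with 9 of 63 copies higher in gPEN and 5 in gISC, or 3 and 5 with the common sum, where the order turned. The cruciferin copy BnaA10g02240D (CRB), a storage globulin, had 11 FPKM in gPEN and 0 in gISC, against 222 FPKM in the micropylar endosperm. FAD2, the desaturase that makes linoleic acid, had 36 FPKM in gPEN and 192 FPKM in gISC in BnaA05g26900D.

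Heat and wound genes gave 5 of 69 copies (7.25%) higher in gPEN and 18 (26.1%) in gISC. Most of these gISC copies were of the jasmonate genes LOX2, JAZ10, AOS and OPR3. LOX2, a lipoxygenase at the start of jasmonate synthesis, was higher in gISC in 7 of 11 copies, with at most 1 FPKM in gPEN and up to 46 FPKM in gISC. AOS and OPR3, later enzymes of that route, were higher in gISC in both copies each, with OPR3 at 4 FPKM in gPEN and 26 FPKM in gISC. JAZ10, a jasmonate-induced repressor, had 0 in gPEN and 74 FPKM in gISC in BnaA02g01520D. Of the heat genes, HSP70-1 was higher in gPEN in 1 of 25 copies and in gISC in 3, and HSFA2 in gISC in 1 of 2. HSP18.2, HSP17.6II, HSP17.4, HSP101 and HSP90.1 had no copy past the rule. The wider HSP20 family gave 5 of 83 genes (6.02%) higher in gPEN and 26 (31.3%) in gISC. On the gPEN side, ZAT12, a zinc finger factor of stress responses, was higher in gPEN in 4 of 5 copies, with 27 FPKM in gPEN and 2 FPKM in gISC in BnaA03g09250D. The part of handling of the tissue in these values was not tested. Housekeeping genes gave 7 of 60 copies (11.7%) higher in gPEN and 12 (20.0%) in gISC, with sums of 7430 FPKM in gPEN and 7762 FPKM in gISC and a median log2 difference of -0.13.

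The largest differences among all described genes repeated these classes and added others. In gPEN, a cysteine-rich protein gene, BnaC06g36060D (C06, 34703721 to 34704327), had 771 FPKM and was listed at 0 in gISC. A leucine-rich repeat kinase gene, BnaC07g21060D (C07, 27741193 to 27742143), had 1274 FPKM in gPEN and 1 FPKM in gISC. A strictosidine synthase homolog, BnaC06g34870D, had 928 FPKM in gPEN and 1 FPKM in gISC, and a thioredoxin-dependent peroxidase, BnaC06g27340D, had 353 FPKM in gPEN and 0 in gISC. In gISC, the largest difference was that of an alpha-L-arabinofuranosidase 2 copy, BnaA10g25450D, at 0 in gPEN and 2299 FPKM in gISC. Its deposited length is 123 bases, and it had 2404 FPKM in gCPT and 1743 FPKM in gOSC. Longer copies of this locus ran both ways. BnaA09g11890D had 6 FPKM in gPEN and 251 FPKM in gISC, and BnaC09g50200D had 20 FPKM in gPEN and 6 FPKM in gISC. Kunitz-type protease inhibitors were 2 of the 10 largest. BnaA07g30010D had 29 FPKM in gPEN and 19085 FPKM in gISC, and 11922 FPKM in gOSC. BnaA07g30790D, the other inhibitor, had 13 FPKM in gPEN and 9662 FPKM in gISC, but 736 FPKM in gOSC. A lysosomal thiol reductase gene, BnaA09g19380D, had 5 FPKM in gPEN and 4629 FPKM in gISC. BnaA02g19670D, an isopropylmalate dehydrogenase, had 0 in gPEN and 642 FPKM in gISC, and BnaCnng05190D, of the dormancy and auxin associated family, had 0 in gPEN and 512 FPKM in gISC. The most abundant genes were of another kind, since chloroplast 23S rRNA had 40710 FPKM in gPEN and 14007 FPKM in gISC in BnaC09g30110D, and mitochondrial 26S rRNA had 7655 FPKM in gPEN and 17971 FPKM in gISC in BnaCnng12640D.

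Copies of some Arabidopsis loci were divided between the tissues. Of 14456 loci with at least 2 compared copies, 607 (4.2%) had copies in both directions, whereas 1579 had 2 or more copies higher in gPEN with none in gISC and 2242 the reverse. The widest split was that of LORELEI-LIKE-GPI-ANCHORED PROTEIN 1, a co-receptor for RALF peptides in Arabidopsis. BnaA09g05300D had 3912 FPKM in gPEN and 34 FPKM in gISC, and BnaC09g04870D had 2871 FPKM in gPEN and 19 FPKM in gISC. In contrast, BnaC02g12430D had 2 FPKM in gPEN and 486 FPKM in gISC, and BnaAnng20980D had 0 in gPEN and 102 FPKM in gISC. Deposited lengths were 369 and 381 bases for the named copies on the gPEN side, and 824 and 761 bases for those on the gISC side. Copies here share only a best Arabidopsis match, and whether they are copies of 1 gene was not tested. RALF-like peptides themselves were divided by gene. Of 35 genes, 8 were higher in gPEN and 10 in gISC, with RALF26 at 1166 FPKM in gPEN and 12 FPKM in gISC in BnaCnng22730D, and RALF33 at 0 in gPEN and 36 FPKM in gISC in BnaA03g42140D. GAST1 protein homolog 1, a small gibberellin-regulated peptide, had 2097 FPKM in gPEN and 16 FPKM in gISC in BnaA09g09740D, against 2 FPKM in gPEN and 320 FPKM in gISC in BnaAnng08970D. An aspartyl protease locus had 581 FPKM in gPEN and 5 FPKM in gISC in BnaA03g03930D, against 1 FPKM in gPEN and 169 FPKM in gISC in BnaC07g28520D. Kinase copies at neighbouring positions on C07 also differed, since BnaC07g21070D, next to BnaC07g21060D above, had 0 in gPEN and 12 FPKM in gISC. Their deposited lengths are 2885 and 951 bases.

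Copies from both subgenomes often had the same direction. Among 5976 putative homeolog pairs, each the lone A copy and the lone C copy compared for an Arabidopsis locus, both copies were higher in gPEN in 478 pairs and in gISC in 673, and copies ran in opposite directions in 33. When the A copy was higher in gPEN, 60.7% of the C copies were too, beside 13.1% of all C copies in pairs. For gISC these shares were 60.6% and 18.6%. Reads of near-identical copies may have been divided between them in the counting, and the part of this in the shared direction was not tested.

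Few neighbouring genes shared a direction over long stretches. Among 45151 placed and compared genes, runs of at least 5 neighbours higher on the same side numbered 4 for gPEN and 14 for gISC. A run of 5 genes on C02, from 12542619 to 12625054, held Rubisco small subunit genes and an abscisic acid deficient 4 homolog. Values over the run were 6 to 1608 FPKM in gPEN and 0 to 19 FPKM in gISC. Another of 5 genes on A01, from 9044898 to 9077322, held cystatin-like genes, with 10 to 1216 FPKM in gPEN and 0 to 7 FPKM in gISC.

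Gene length went with direction. Genes higher in gPEN had a median length of 1006 bases and genes higher in gISC 1259 bases, beside 1187 bases for all compared genes. Under 600 bases, 19.2% of genes were higher in gPEN and 12.1% in gISC, and at 1800 bases or more the shares were 8.64% and 16.7%. Without the short peptide families, ribosomal protein genes and photosynthesis genes, 1493 of 8582 genes under 600 bases were higher in gPEN and 1078 in gISC. All 17 photosynthesis copies of 1800 bases or more were higher in gPEN, and 7 of 18 under 600 bases. The part of length in the other counts was not tested.

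Most genes of either side were also expressed in adjoining compartments. Of the 7430 genes higher in gPEN, 66.2% reached 5 FPKM in gCZE, beside 35% of all compared genes, and 46.7% were highest in gPEN among the 7 compartments, while 3702 were at least 2-fold above gCZE as well. Of the 9344 genes higher in gISC, 68.7% reached 5 FPKM in gOSC and 62.7% in gCPT, beside 38.6% and 37% of all compared genes, and 36.7% were highest in gISC. At least 2-fold above gOSC stood 3873 of them, and 4281 above gCPT. The MINI3 copy BnaC06g11020D had 51 FPKM in gPEN, 0 in gISC, 1 FPKM in gCZE and 16 FPKM in the micropylar endosperm, so that it was highest in the peripheral region. The cytochrome P450 72C1 homolog BnaA08g23390D had 2 FPKM in gPEN, 683 FPKM in gISC, 74 FPKM in gCPT and 11 FPKM in gOSC, so that it was highest in the inner seed coat.

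**Figure D5:**
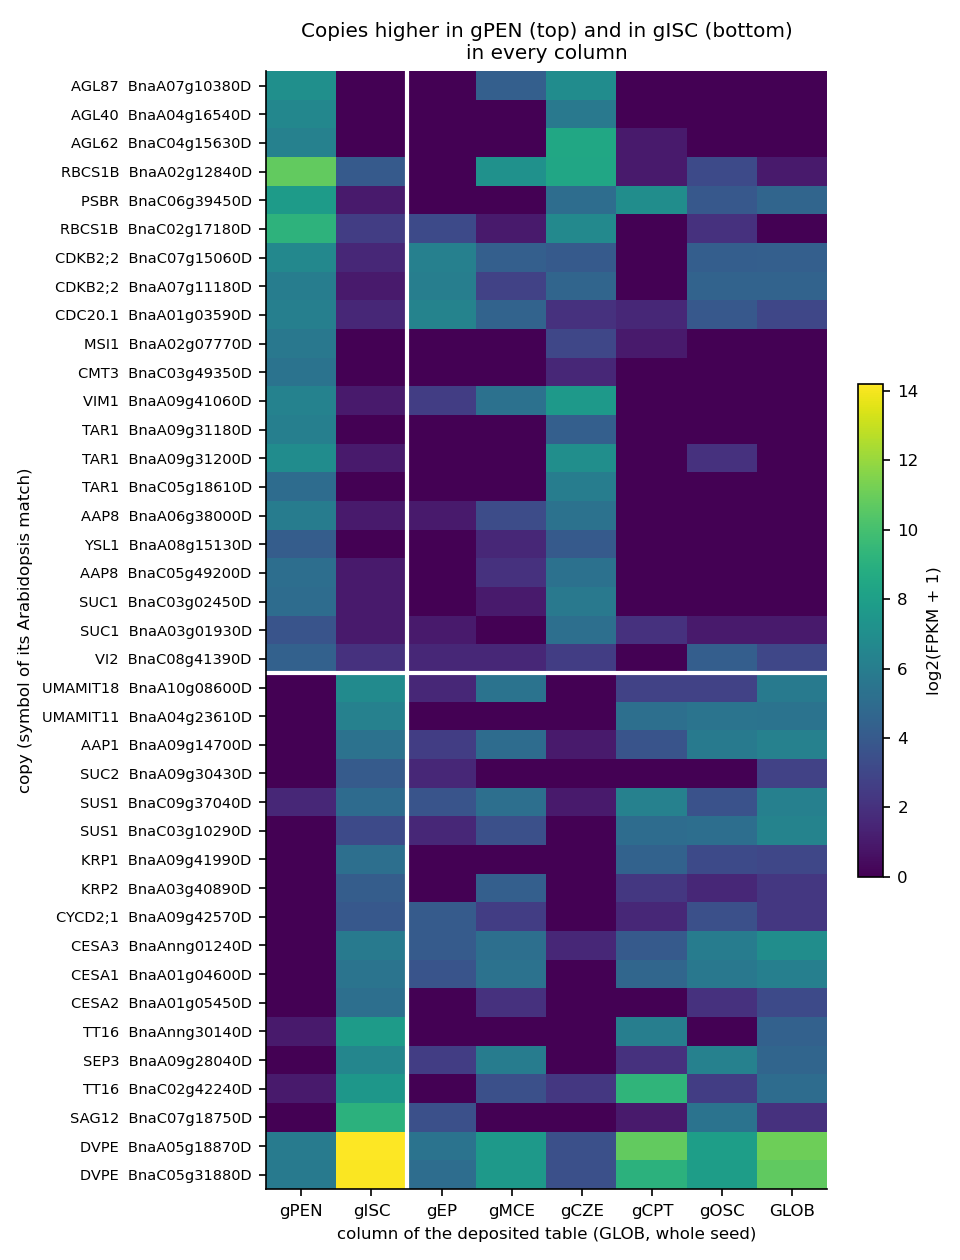
log2(FPKM + 1), as colour, of named copies (y axis, symbol of the Arabidopsis match and copy) in the 8 columns (x axis), with peripheral endosperm (gPEN) and inner seed coat (gISC) first, then embryo proper, micropylar and chalazal endosperm, chalazal proliferating tissue, outer seed coat and whole seed (GLOB). The white line divides copies higher in gPEN (top) from copies higher in gISC (bottom). Many copies of the top block are also bright in chalazal endosperm, such as the AGL62 copy at 350 FPKM there, and the DVPE copies of the bottom block are bright in gCPT at 1795 and 563 FPKM.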

How the data were processed

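Deposited values were a score per gene and tissue: FPKM rounded by the authors to whole numbers, with 1 column per group from 2 to 4 libraries. How libraries were combined is not stated. Gene length in bases, a column of other unit, was also deposited. Trimmomatic 0.36, HISAT2 and Cufflinks are named in the submitters' processing notes, without roles, and the genome build is not given in the sources used here. All values (100%) were whole, so low values are coarse. A further 1 column of FPKM matched no sample and was not used, and 593 genes had no compartment values.

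From these, log2(FPKM + 1) in gPEN minus gISC was computed for 55148 genes with at least 1 FPKM in either column. The rule of size was a difference of at least 1 (2-fold) with at least 5 FPKM in the higher column. It is not a test and has no error rate; its code was tested on simulated data. The plan called for limma on replicate libraries, the omission of each replicate and a replicate block, and none of these could be run with 1 column per group. Folds are not given against a column listed at 0, and a fold against 1 FPKM is coarse.

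Symbols are those of the authors' best Arabidopsis match, found for 51783 of the compared genes, so copies share symbols and near-identical copies are uncertain. Positions come from the deposited table, with 1 added to each start to count from 1, because end minus deposited start gives the deposited length for 17707 genes. The 24 lists with 478 loci, the 37 families and all members were chosen with earlier results of these data known. Named genes were, per list and direction, up to 4 copies with the largest difference past the rule, the 10 highest and 10 lowest differences among described genes, the 5 most abundant of each column, up to 2 per family and direction, and copies of the 8 loci most divided between directions. Ranges over all copies of a symbol, and symbols picked from list members beyond this rule, were chosen after their values were seen, as were the examples from other columns. Homeolog pairs are putative. Alternatives were a pseudocount of 0.1, other filters, quantile normalisation, a common median or sum, a 4-fold rule and no floor. Computation used pandas 2.3.3 and numpy 2.4.6 under Python 3.11.15, and plots used matplotlib 3.10.9.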

Additional observations from a re-analysis of the deposited data

How the results depend on the processing

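No paired analysis was possible because each tissue has 1 combined column with no replicate values, and for the same reason no replicate could be left out. At 4-fold, 4230 genes were higher in gPEN, 5729 in gISC and 646 homeolog pairs had both copies on the same side, against 1151 at 2-fold. Without the floor of 5 FPKM, 14593 and 19627 genes were counted. Quantile normalisation gave 7611 and 7785, and a pseudocount of 0.1 gave 7441 and 9355. A filter of 1 FPKM in 2 of 8 columns, added after the data were seen, gave 7150 and 9187. A common median left every count as it was, because the rounded columns already had the same median, so it was no check. With only genes at 5 FPKM or more in a column, the list medians were 5.92 for auxin (-1.0 with all compared copies) and 1.14 for cytokinin and abscisic acid (-0.94), where 3 and 14 copies remain. Medians of lists are set by rounding at low values and were not relied on. Depth is unknown, so no limit can be put on values of 0.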

Other observations

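Gene descriptions outside the lists and families above were ranked by their share of genes on one side, among 429 descriptions with at least 15 compared genes, and those given here were chosen after their values were seen. On the filial side, 13 of 16 plant thionin genes, which encode small antimicrobial peptides, were higher in gPEN and 0 in gISC, with BnaA07g00450D at 378 FPKM in gPEN and 2 FPKM in gISC. DNA-binding proteins with an HMG box and an ARID domain followed with 10 of 16, led by BnaA05g26000D at 570 FPKM in gPEN and 3 FPKM in gISC. Putative membrane lipoproteins were higher in gPEN in 42 of 71 genes and in gISC in 1, and BnaC01g38790D had 6147 FPKM in gPEN and 25 FPKM in gISC.

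On the maternal side, 19 of 25 wound-responsive family genes were higher in gISC, with BnaA06g13820D listed at 0 in gPEN and at 59 FPKM in gISC. Octicosapeptide/PB1 genes, whose domain binds other proteins, gave 19 of 26, and BnaA02g34210D had 1 FPKM in gPEN and 96 FPKM in gISC. Genes with the DCD domain of development and cell death gave 10 of 18 higher in gISC, with BnaA05g08800D at 4 FPKM in gPEN and 41 FPKM in gISC. Calcium-dependent phosphotriesterases gave 3 of 19 higher in gPEN and 12 in gISC, with BnaA01g19460D at 9 FPKM in gPEN and 824 FPKM in gISC.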
